A study of Rattus norvegicus with 7 samples.

Results

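The genes described here are 8 of the 4736 genes with a named probe set on the array: Rsad2, Mx1, Mx2, Oas1a, Gbp2, Irgm2, Irf1 and Irf7, which interferon induces in many cell types. They were taken from a list of 9 antiviral genes and regulators by the platform's gene annotation, which gives them 11 probe sets: 2 each for Rsad2, Irf1 and Irf7 and 1 for each of the other 5. Ifit3, the remaining gene of the list, has no probe set in that annotation and was skipped. The genes were chosen by their signals on these same arrays, with attention to lower values at 100 than at 10 µg/ml in astrocytes. All values below are therefore a description of the arrays and carry no test.

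The arrays came from primary cultures of hippocampal neurons, treated for 24 h with 1 or 10 µg/ml of grape seed extract or left at 0 µg/ml, and of hippocampal astrocytes treated with 1, 10 or 100 µg/ml or left at 0 µg/ml. The labels give Wistar rats, 17-day-old, for every culture, without saying whether the age is before or after birth, and one medium for both cell types (DMEM with glutamine, N1 supplement and antibiotics). Grape seed extract is a plant preparation rich in polyphenols. There were 7 arrays, 1 for each dose in each cell type, so no value has a replicate and precision is limited by how few arrays there are. Whether a culture pooled several animals is not given in the sources used here.

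Interferons are secreted proteins that cells release when they sense virus or bacterial products. Their receptors activate Janus kinases and STAT transcription factors, which, with interferon regulatory factors, bind short promoter elements and switch on genes that block viral replication. In the brain, astrocytes and microglia are both known to mount this response, and neurons to a more limited extent.

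At 10 µg/ml all 8 genes were above untreated astrocytes, as were 39.7% of 4252 tested probe sets by some amount. Their signals there were between 1.95-fold (Oas1a) and 25.9-fold (Rsad2) above the untreated ones. That array also held the highest astrocyte signal of each of the 8. The share of all tested probe sets with their highest astrocyte signal there was not counted. At 100 µg/ml all 8 were lower than at 10 µg/ml, as were 61.0% of tested probe sets, Mx1 the most and Rsad2 the least of the 8. At that dose 4 of them (Mx1, Mx2, Oas1a and Irf7) were within 1.5-fold of the untreated astrocytes. The share of all tested probe sets within that range was not counted, so it is not known whether this sets these genes apart. In neurons the direction at 10 µg/ml was the opposite: all 8 were lower than in untreated neurons, as were 51.9% of 4453 tested probe sets, with changes between -0.90 and -0.13 log2. Between untreated neurons and untreated astrocytes the difference ran from -0.71 to 0.20 log2. These values are of the probe set with the higher mean signal of each gene.

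RefSeq promoter windows, each running from 250 bases before to 50 bases after the start site used by that table (build GRCr8), were found for 7 of the 8 genes. Mx2 had no window. The windows are shown because all 8 genes had their highest astrocyte signal at 10 µg/ml. The elements that interferon signalling is known to act through are short enough to be read in them. The search covered both strands. It looked for GAAA, any 2 bases and GAAA again, which is the core of the interferon-stimulated response element, and for TTC, any 3 bases and GAA, the gamma-activated site bound by STAT dimers. The last was GGGA, any 2 bases and TTCC, a form of the site bound by NF-kB. On the opposite strand the first reads TTTC, any 2 bases and TTTC, the second reads the same, and the last reads GGAA, any 2 bases and TCCC. The 6 windows with a match follow, written 5′ to 3′ on the strand of the gene, with the matches in capitals. They lie at chr6:48788071-48788370 on the minus strand for Rsad2, chr12:41330216-41330515 on the plus strand for Oas1a, chr2:234005477-234005776 on the plus strand for Gbp2, chr10:42889720-42890019 on the plus strand for Irgm2, chr10:38417685-38417984 on the plus strand for Irf1 and chr1:205799974-205800273 on the minus strand for Irf7.
Rsad2: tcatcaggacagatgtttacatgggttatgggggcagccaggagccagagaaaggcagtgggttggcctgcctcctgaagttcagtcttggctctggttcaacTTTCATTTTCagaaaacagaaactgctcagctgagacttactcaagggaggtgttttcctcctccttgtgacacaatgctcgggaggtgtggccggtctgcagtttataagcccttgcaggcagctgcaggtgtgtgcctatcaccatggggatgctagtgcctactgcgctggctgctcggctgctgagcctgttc
Oas1a: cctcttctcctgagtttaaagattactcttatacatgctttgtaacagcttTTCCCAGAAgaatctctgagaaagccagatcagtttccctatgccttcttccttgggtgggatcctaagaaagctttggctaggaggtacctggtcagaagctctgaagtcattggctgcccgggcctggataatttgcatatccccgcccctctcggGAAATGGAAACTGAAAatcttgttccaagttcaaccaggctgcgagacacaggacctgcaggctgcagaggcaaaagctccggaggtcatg
Gbp2: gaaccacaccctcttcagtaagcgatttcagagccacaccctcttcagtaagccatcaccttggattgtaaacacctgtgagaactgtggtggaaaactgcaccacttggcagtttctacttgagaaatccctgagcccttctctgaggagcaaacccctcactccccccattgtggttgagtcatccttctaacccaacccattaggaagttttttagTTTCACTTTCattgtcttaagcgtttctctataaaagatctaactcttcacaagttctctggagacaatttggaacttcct
Irgm2: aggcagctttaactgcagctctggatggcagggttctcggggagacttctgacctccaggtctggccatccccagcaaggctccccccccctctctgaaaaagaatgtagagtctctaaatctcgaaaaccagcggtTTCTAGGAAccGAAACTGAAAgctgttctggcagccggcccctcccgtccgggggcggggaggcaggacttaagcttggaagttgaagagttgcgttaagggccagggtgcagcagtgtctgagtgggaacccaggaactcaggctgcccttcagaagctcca
Irf1: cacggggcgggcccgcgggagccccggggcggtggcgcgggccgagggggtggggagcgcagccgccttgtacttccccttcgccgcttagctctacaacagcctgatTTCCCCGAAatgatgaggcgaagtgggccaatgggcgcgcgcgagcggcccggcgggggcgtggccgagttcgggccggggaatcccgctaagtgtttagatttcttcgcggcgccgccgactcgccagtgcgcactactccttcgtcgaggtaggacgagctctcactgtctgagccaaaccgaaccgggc
Irf7: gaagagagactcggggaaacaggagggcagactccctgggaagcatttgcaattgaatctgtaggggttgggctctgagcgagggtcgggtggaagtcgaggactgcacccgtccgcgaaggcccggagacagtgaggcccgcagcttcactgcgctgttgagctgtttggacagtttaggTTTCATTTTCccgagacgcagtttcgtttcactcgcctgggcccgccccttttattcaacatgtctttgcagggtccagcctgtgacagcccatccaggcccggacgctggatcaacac

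The response element core was present in 5 of the 7 windows, against 3.92% of all 33469 windows in the table. Its match began 147 bases upstream of the start site in Rsad2, 102 in Irgm2, 69 in Irf7 and 31 in Gbp2. Oas1a held 2 matches, 41 and 35 bases upstream, which overlap and form a run of the repeated GAAA unit. The gamma-activated site was present in 3 of the 7 windows, against 8.87% of all windows. It began 142 bases upstream in Irf1, 113 in Irgm2 and 199 in Oas1a. Irgm2 and Oas1a held both elements, without overlap between them. The 1 form of the NF-kB site that was searched for was in none of the 7 windows and in 1.30% of all windows. Other forms of that site were not searched for, so their presence in these windows is not described. A match is a description of the letters and not evidence of binding, and a window without a match says only that these letters are absent from it.

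**Figure D1:**
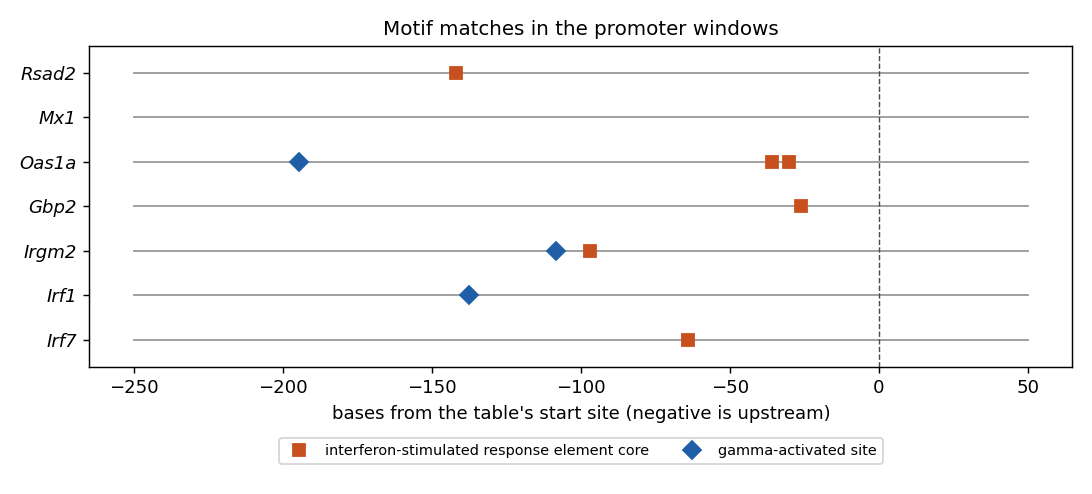
Positions of motif matches in the promoter windows of 7 genes, in bases from the start site used by the RefSeq table (dashed line, negative is upstream). Squares mark the interferon-stimulated response element core and diamonds the gamma-activated site. All matches lie upstream of the start site, and Mx1 has none.

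Signals are the authors' intensities on a linear scale, and a log2 change compares 2 arrays. Where a gene has 2 probe sets, the one with the higher mean signal is given first. To show how far arrays differ in general, the change that 95% of all tested probe sets stayed within is given for each comparison. Tested probe sets are those whose log2 signal, averaged over the arrays of the cell type, exceeded the overall median (79.9). All 8 genes met this in both cell types. The lowest of them in an untreated culture was Mx1 in neurons at 141, so none entered only through a treated array in which it was high. Mx2 in neurons, at 162, 51.4 and 104 for 0, 1 and 10 µg/ml, was under the overall median at 1 µg/ml. Its entry in neurons leaned on the untreated array, in which it was highest.

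The cultures carried the markers of their labels unevenly. Summed over 6 measured neuron markers, the signal was 12476 to 13087 in neurons against 710 to 1578 in astrocyte cultures. Of the astrocyte markers, S100b was at 1966 to 2127 in neurons and 6986 to 9085 in astrocytes. The sum over the 7 measured astrocyte markers overlapped between cell types, at 27505 to 29981 in neurons and 24742 to 28666 in astrocytes, and the glutamate transporter Slc1a3 was higher in neurons. The astrocyte arrays also carried markers of microglia and macrophages, cells that respond to interferon themselves. The sum over the 10 measured of 11 such markers was 10102 to 13358 in neurons and 14202 to 21486 in astrocytes. Most of it was Lyz2, and without that gene, a choice made after seeing the data, the sum was 826 to 1194 in neurons and, along the astrocyte doses of 0, 1, 10 and 100 µg/ml, 5767, 6647, 7304 and 3943. Itgam and Csf1r, which define these cells, lay near the floor of 17.9 on every array, between 1.1 and 29.0. Fibroblast and meningeal markers summed to 7980 to 9855 in neurons and 28670 to 38096 in astrocytes. Markers of the oligodendrocyte lineage summed to 2130 to 2269 in neurons and 8541 to 13748 in astrocytes. For endothelial markers the sums were 180 to 243 and 152 to 221. In cultures measured in bulk, fewer cells of a type and less RNA per cell cannot be told apart.

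**Figure D2:**
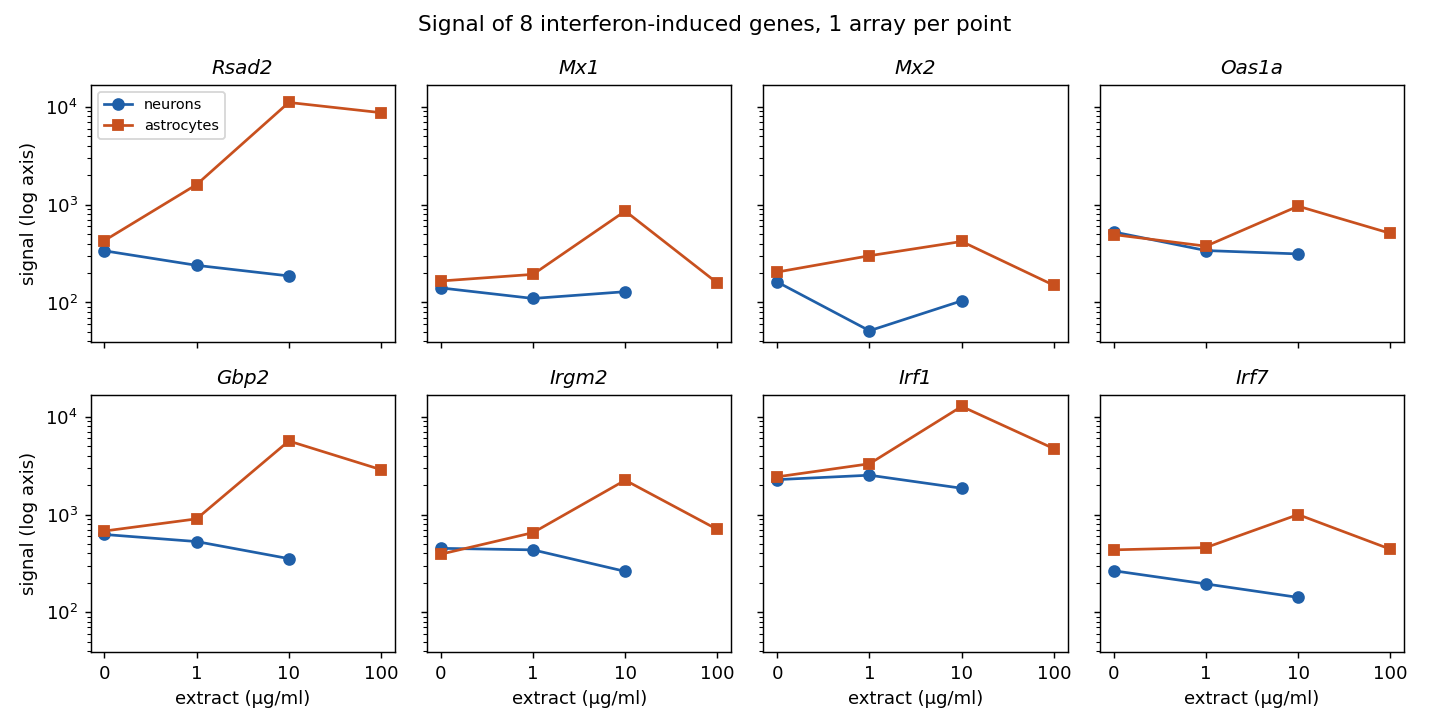
Signal of the 8 genes (log axis, probe set with the higher mean) against the dose of extract in µg/ml. Circles are neuron arrays, squares are astrocyte arrays, and each point is 1 array. The astrocyte line peaks at 10 µg/ml in all 8 panels.

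Irf1 and Irf7 are the transcription factors of the group. Irf1 is induced quickly by interferon gamma and by inflammatory cytokines and activates many of the other genes, and Irf7 is known for amplifying the production of type I interferon. The signal of Irf1 in astrocytes was 2431, 3305, 12761 and 4720 at 0, 1, 10 and 100 µg/ml. The 10 µg/ml array stood above every other by 2.70-fold or more, and the change from untreated astrocytes was 2.39 log2. The second Irf1 probe set read 341, 418, 2681 and 690 and changed by 2.97 log2. In neurons Irf1 was at 2275, 2525 and 1857 at 0, 1 and 10 µg/ml, with the second probe set at 264, 246 and 175. In both probe sets the lowest neuron array was that at 10 µg/ml, where the astrocytes were highest.

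Irf7 in astrocytes was at 435, 459, 999 and 442, which is 2.29-fold higher at 10 µg/ml and 1.02-fold at 100 µg/ml over untreated cells. Its dimmer probe set read 108, 93.3, 217 and 150, a 2.00-fold difference at 10 µg/ml. At 100 µg/ml the probe sets differed: the first was back at the untreated level, while the dimmer one kept 38.9% of its increase. In neurons Irf7 was at 266, 195 and 142 at 0, 1 and 10 µg/ml, lower at each step. The dimmer probe set was under the median signal in neurons, at 41.6 to 49.6, and showed no such order.

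Rsad2 encodes viperin, an enzyme that makes a nucleotide analogue which ends viral RNA chains. Its signal in astrocytes was 430, 1608, 11129 and 8749 at 0, 1, 10 and 100 µg/ml. It was the single gene of the 8 that was at least 2-fold higher at 1 µg/ml already (3.74-fold), where 1.03% of 4252 tested probe sets were. The second probe set gave 126, 474, 3940 and 2435, so both put the change at 10 µg/ml near 5 log2 (4.70 and 4.96). In neurons Rsad2 was at 338, 240 and 187, and the second probe set at 148, 121 and 69.7.

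Mx1 and Mx2 are dynamin-like GTPases that trap viral components, in the rat Mx1 in the nucleus and Mx2 in the cytoplasm. Mx1 in astrocytes was at 166, 194, 862 and 158. The 10 µg/ml array alone stood out, 5.20-fold above untreated cells, and the other 3 lay close together. Mx2 in astrocytes was at 205, 301, 421 and 150, a 2.05-fold difference at 10 µg/ml. The 100 µg/ml array was the lowest of the 4 for both genes. In neurons Mx1 was at 141, 110 and 129, and Mx2 at 162, 51.4 and 104. The Mx2 value at 1 µg/ml, a change of -1.66 log2 from untreated neurons, was the largest of any of the 8 genes in neurons and was smaller at the higher dose. The genes are close relatives, and whether their probe sets read each other's transcripts was not tested.

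Oas1a encodes an oligoadenylate synthetase, which senses double-stranded RNA and activates the RNA-degrading enzyme RNase L. Its signal in astrocytes was 495, 377, 967 and 510, so the array at 10 µg/ml was about double the rest, 0.97 log2 over untreated cells. Oas1a was the 1 gene of the group below its untreated level in astrocytes at 1 µg/ml. In neurons it was at 527, 340 and 314, lower in both treated arrays. Its probe set is of a type that may match transcripts of several genes, and the rat genome holds a cluster of closely related Oas1 genes.

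Gbp2 and Irgm2 are interferon-induced GTPases that act on the membranes around intracellular pathogens, known best from the mouse. Gbp2 in astrocytes was at 678, 903, 5654 and 2878, an 8.34-fold difference at 10 µg/ml. At 100 µg/ml it was still 4.24-fold above untreated cells. Irgm2 in astrocytes was at 393, 653, 2244 and 703, 5.71-fold higher at 10 µg/ml and 1.79-fold higher at 100 µg/ml. In neurons Gbp2 was at 625, 529 and 354, and Irgm2 at 451, 435 and 262. Both were lowest at 10 µg/ml in neurons, where the astrocytes were highest.

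Counted together, 7 of the 8 genes were at least 2-fold higher in astrocytes at 10 µg/ml than in untreated astrocytes, Oas1a falling just short, where 4.30% of tested probe sets were. The median of the 8 changes was 2.39 log2, that of all tested probe sets was -0.10, and 95% of them stayed within 1.15 log2. Of the 8 genes, 6 lay beyond that range, and Oas1a and Mx2 lay inside it. At 1 µg/ml the median of the 8 was 0.43 log2, against -0.01 for all tested probe sets, and 7 of the 8 were higher by some amount, as were 48.8% of all.

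**Figure D3:**
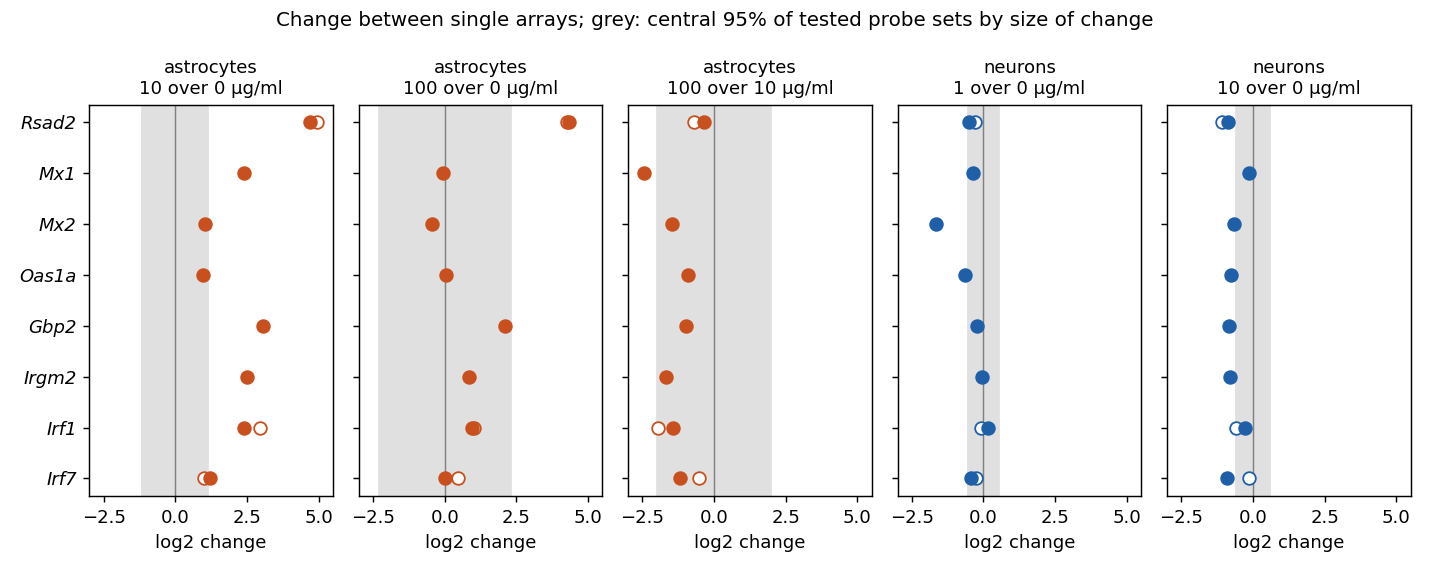
Log2 change between single arrays for the 8 genes in 5 comparisons. Filled points are the probe set with the higher mean signal, open points the second probe set where there is one, and the grey band holds 95% of all tested probe sets by the size of their change. All 8 genes lie to the right of 0 in astrocytes at 10 over 0 µg/ml, and to the left of 0 in astrocytes at 100 over 10 µg/ml and in neurons at 10 over 0 µg/ml.

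Between 10 and 100 µg/ml the 8 genes separated. The share of the increase at 10 µg/ml that was still present at 100 µg/ml was 77.8% for Rsad2, 44.2% for Gbp2, 22.2% for Irf1 and 16.7% for Irgm2. It was 3.24% for Oas1a and 1.19% for Irf7, while Mx1 and Mx2 were below their untreated signals, as were 65.9% of tested probe sets. Over all tested probe sets, the median change was -0.18 log2 for 100 over 10 µg/ml and -0.26 log2 for 100 over 0 µg/ml. Quantile normalization brought these medians to -0.03 and -0.09. Changes of the 8 genes to 100 µg/ml are therefore given relative to the median probe set as well, and each value below names its scale.

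Relative to the median, Mx1 differed between 100 and 10 µg/ml by -2.27 log2, Irgm2 by -1.50, Mx2 by -1.31 and Irf1 by -1.26, and Irf7 was 2-fold lower. Gbp2 (-0.80), Oas1a (-0.75) and Rsad2 (-0.17) differed by less than 2-fold. On the deposited scale too, 5 of the 8 were at least 2-fold lower, where 16.0% of tested probe sets were. Irf7 is counted by its brighter probe set, and its dimmer one differed by -0.53 log2. With all probe sets of a gene averaged, 4 of the 8 were at least 2-fold lower. Of all tested probe sets, 95% stayed within 1.98 log2, a range that only Mx1 left. After quantile normalization Irf7 stood at -0.91 and Gbp2 at -1.12, so these 2 exchange sides of the 2-fold limit. Over all tested probe sets at 100 over 10 µg/ml, 217 were at least 2-fold higher and 682 lower as deposited, against 297 and 464 after quantile normalization and 291 and 528 after centring. Since the genes were listed for this step, the count describes the list and supports nothing. Against untreated astrocytes, Rsad2 was higher at 100 µg/ml by 4.61 log2, Gbp2 by 2.35, Irf1 by 1.22 and Irgm2 by 1.10. On the deposited scale 2 of the 8 were at least 2-fold higher (Rsad2 and Gbp2), where 6.63% of tested probe sets were. The split of all probe sets at that dose was 282 higher and 806 lower as deposited, 384 and 559 after quantile normalization and 400 and 573 after centring. Mx1 stood at 0.19 relative to the median and at -0.07 on the deposited scale, so its direction depends on the scaling, and Mx2 stood at -0.19 and -0.45.

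Several markers of microglia and macrophages were lower on the same array. Aif1, a calcium-binding protein of these cells, was at 251 at 100 µg/ml and 1426 at 10 µg/ml, the complement gene C1qb at 1579 and 3364, and the surface protein Cd53 at 403 and 989. In all, 3 of the 6 tested markers were at least 2-fold lower at 100 than at 10 µg/ml on the deposited scale, where 16.0% of all tested probe sets were. Relative to the median probe set 2 of the 6 were, Aif1 and Cd53, and 1 was at least 2-fold higher. That was Fcgr2b, an antibody receptor, at 1162 at 100 µg/ml and 618 at 10 µg/ml. Markers of other cells were lower too. Slc1a3 was at 966 at 100 µg/ml and 3946 at 10 µg/ml, 1 of 6 tested astrocyte markers at least 2-fold lower. Pdgfra (1232 and 7780) was 1 of 4 for the oligodendrocyte lineage, and Dcn (106 and 254) 1 of 5 for fibroblasts and meninges. No tested neuron or endothelial marker was as much lower. The part of microglia, macrophages or any other cells in the lower signals of the 8 genes was not tested.

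Inflammatory cytokines and enzymes went on to higher signals over the same step. Of 13 measured, 5 had an untreated signal under the median of all signals and were tested only through the arrays on which they were high, so a count over all 13 is partly fixed by the filter. Of the other 8, in a split made after seeing the data, all 8 were at least 2-fold higher at 10 µg/ml than in untreated astrocytes, where 4.30% of tested probe sets were. At 100 over 10 µg/ml 6 of these 8 were at least 2-fold higher again on the deposited scale, where 5.10% were, and none was as much lower. Il1b, for interleukin 1 beta, was at 12448 at 100 µg/ml and 5766 at 10 µg/ml. Il6, for interleukin 6, is among the 5, at 19.6 in untreated astrocytes, and was at 17783 at 100 µg/ml and 442 at 10 µg/ml. Cxcl10, a chemokine that interferon induces, was at 3556 and 8879, on the side of the interferon-induced genes. Both steps share the array at 10 µg/ml, and the difference between the lists was not tested.

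**Figure D4:**
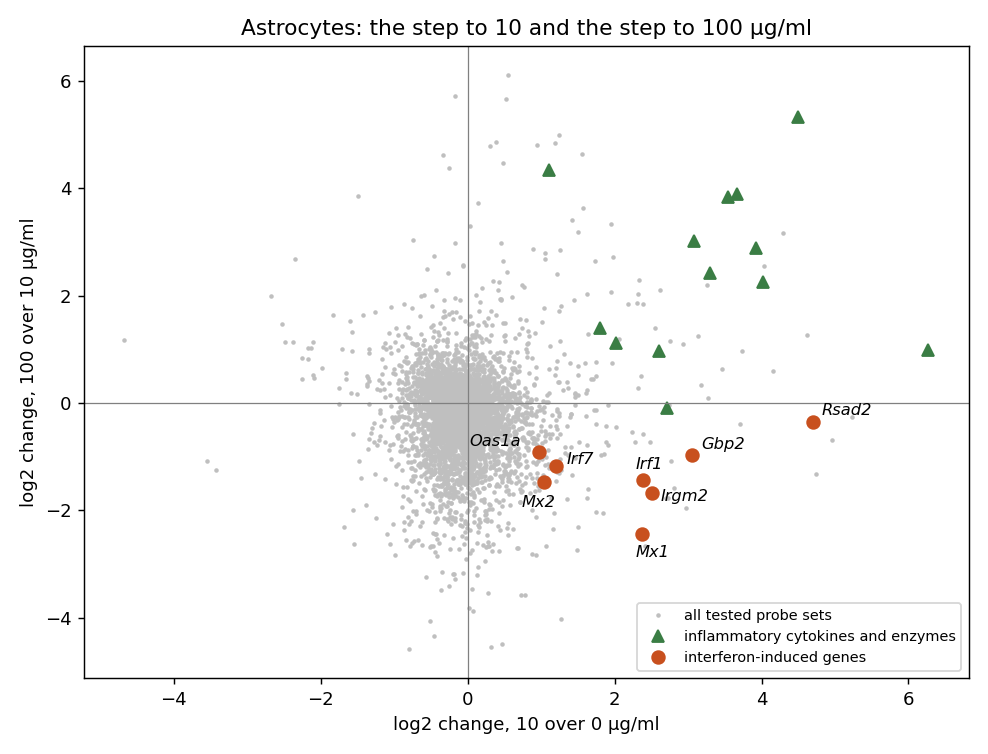
Log2 change in astrocytes at 100 over 10 µg/ml (vertical) against 10 over 0 µg/ml (horizontal), on the deposited scale, for 4252 tested probe sets (grey), the 8 interferon-induced genes (circles) and 13 inflammatory cytokines and enzymes (triangles). All 8 circles lie below the horizontal line at 0, as do 61.0% of tested probe sets. Of the 13 triangles, 5 were tested only through the arrays on which they were high. Their positions are partly fixed by the filter.

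Across the whole array, 38 of 4252 tested probe sets (0.894%) were at least 2-fold higher in astrocytes at 10 µg/ml than in untreated cells and at least 2-fold lower again at 100 than at 10 µg/ml. They belonged to 29 named genes, of which Mx1, Mx2, Irgm2, Irf1 and Irf7 were 5. Irf7 was among them through its brighter probe set alone. Ranked by whichever of its probe sets in this group had the larger step down, the first 10 named genes were Il15, Cd72, Pdgfra, Mx1, Slc22a5, Krt18, Dennd3, Sephs2, RT1-S3 and Irf1. The place of Irf1 rests on its dimmer probe set (-1.96 log2 on the deposited scale), while its brighter one differed by -1.43. Il15, a cytokine that supports natural killer cells and is itself induced by interferon, was at 291 at 10 µg/ml and under the floor at 100 µg/ml, at least 16.2-fold lower. Of all 183 probe sets at least 2-fold higher at 10 µg/ml, 52.5% were lower at 100 than at 10 µg/ml by some amount and 20.8% by 2-fold or more.

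In neurons the 8 genes were lower with the extract. At 10 µg/ml all 8 were below untreated neurons, and their median change was -0.77 log2, against -0.01 over all. The lowest were Irf7 (-0.90), Rsad2 (-0.86), Gbp2 (-0.82) and Irgm2 (-0.79), followed by Oas1a (-0.75), Mx2 (-0.65), Irf1 (-0.29) and Mx1 (-0.13). None reached 2-fold in its first probe set, where 0.472% of 4453 tested probe sets were at least 2-fold lower, but 95% of all stayed within 0.58 log2 and 6 of the 8 lay beyond that. At 1 µg/ml the median was -0.40, 7 of the 8 were lower by some amount, as were 50.3% of all, and Mx2 was the 1 gene at least 2-fold lower, where 0.292% of all were. Mx2 passed the filter in neurons with the help of its high untreated array, so its place in that count is partly fixed by the filter. Among 154 probe sets tested in both cell types that were at least 2-fold higher in astrocytes at 10 µg/ml, 64.9% were lower in neurons at that dose by some amount. The untreated neuron array was the highest of the 3 for 7 of the 8 genes, Irf1 being the exception, and the share of all tested probe sets with this order was not counted. Both comparisons share the untreated neuron array and are not independent. The microglia and macrophage sum without Lyz2 was 1194, 826 and 1032 at 0, 1 and 10 µg/ml, and its part was not tested.

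The cell types were close before treatment and far apart at 10 µg/ml. In untreated cultures 6 of the 8 genes were lower in neurons, as were 48.3% of 4709 tested probe sets, and 2 were higher (Irgm2 by 0.20 and Oas1a by 0.09 log2). The median was -0.18 and none of the 8 differed 2-fold in its brighter probe set, while 21.8% of probe sets did. The dimmer Irf7 probe set did differ 2-fold, at 49.6 in untreated neurons and 108 in untreated astrocytes (-1.13 log2). That of Rsad2 was higher in untreated neurons by 0.22 log2, against -0.34 in the brighter one. At 1 µg/ml all 8 were lower in neurons, as were 44.5% of probe sets, and 3 of them (Rsad2, Mx2 and Irf7) by 2-fold or more, where 9.75% were. At 10 µg/ml all 8 were at least 2-fold lower in neurons, where 11.8% were, with a median of -2.80 log2. The differences at that dose ran from -5.90 for Rsad2 and -4.00 for Gbp2 to -1.62 for Oas1a. Rsad2 was thus at 187 in neurons and 11129 in astrocytes at 10 µg/ml, but at 338 in neurons and 430 in astrocytes without extract. All 3 neuron arrays lay below all 4 astrocyte arrays for 4 of the 8 (Rsad2, Mx1, Gbp2 and Irf7), as for 16.8% of tested probe sets, and the arrays of the cell types overlapped for the other 4. This split depends on the probe set. The dimmer one of Irf1 did not overlap, at 175 to 264 in neurons and 341 to 2681 in astrocytes. That of Rsad2 did overlap, at 69.7 to 148 in neurons and 126 to 3940 in astrocytes.

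**Figure D5:**
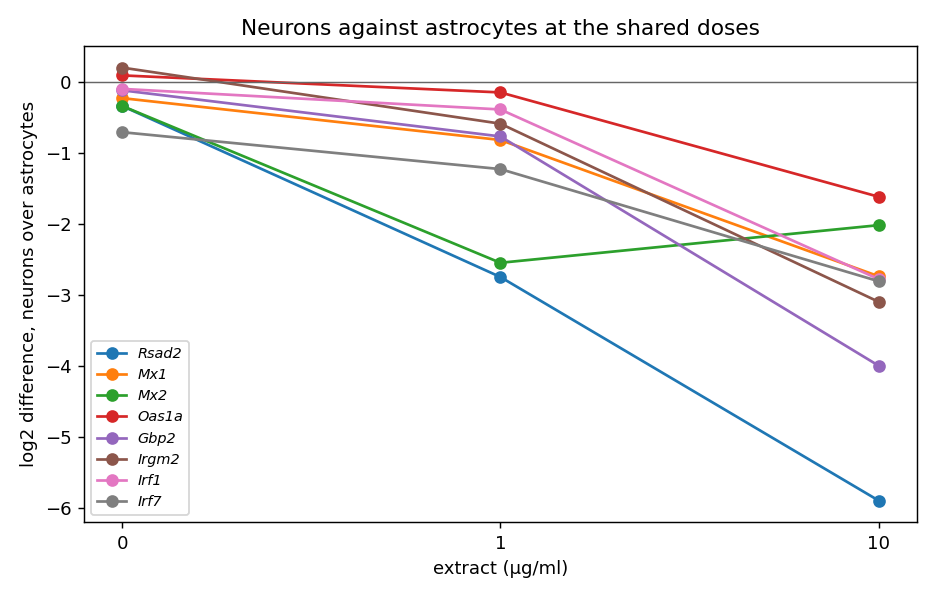
Log2 difference of neurons over astrocytes for the 8 genes at the doses given to both, 0, 1 and 10 µg/ml, 1 array of each cell type per point. Each gene is shown by its probe set with the higher mean signal. The points lie within 0.71 of 0 without extract and between -5.90 and -1.62 at 10 µg/ml.

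Other genes of the pathway were counted by lists drawn up with earlier results of these data known. Of the interferons, Ifnb1 and Ifng were measured and lay near or under the floor, at 5.2 to 32.7 for Ifnb1 and 3.5 to 28.9 for the Ifng probe set with the higher mean. The probe set of Ifnar1, a subunit of the type I interferon receptor, was at 155, 180, 297 and 121 in astrocytes at 0, 1, 10 and 100 µg/ml, highest at 10 µg/ml like the 8 genes and lowest at 100 µg/ml like Mx1 and Mx2. Of 5 tested genes of Janus kinase and STAT signalling and its inhibitors, Jak2 was at least 2-fold higher at 10 µg/ml (275 against 119 in untreated astrocytes), where 4.30% of all tested probe sets were. From 10 to 100 µg/ml 4 of the 5 were at least 2-fold lower on the deposited scale, where 16.0% of all were: Stat2, Pias3, Ptpn2 and Ptpn6. Relative to the median probe set 2 of the 5 were, Pias3 and Ptpn6. Ptpn6, a phosphatase found mainly in blood cell lineages and microglia, was at 53.9 at 100 µg/ml and 1254 at 10 µg/ml.

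Among sensors of microbial products, 3 of 4 tested were at least 2-fold higher at 10 µg/ml than in untreated astrocytes, where 4.30% of all tested probe sets were. At 100 over 10 µg/ml 3 of 4 were at least 2-fold lower on the deposited scale, where 16.0% of all were. Relative to the median probe set 3 of 4 were as well. The genes higher at 10 µg/ml were Tbk1, Tlr7 and Cd14, and those lower at 100 µg/ml were Tbk1, Tlr7 and Tlr4. Tlr4 was at 187, 117, 163 and 11 in astrocytes at 0, 1, 10 and 100 µg/ml. It had no increase at 10 µg/ml and was under the floor at 100 µg/ml. Tbk1, the kinase that activates interferon regulatory factors, was at 218, 418, 673 and 197, and Tlr7, a receptor for single-stranded RNA, at 91.6, 132, 222 and 93.8. Both were highest at 10 µg/ml and near their untreated signal at 100 µg/ml, as Mx1 was. Cd14, a co-receptor for bacterial lipopolysaccharide, was at 1488, 1922, 7418 and 8952, with no step down. Of 6 other interferon-induced effectors tested, Ccl5, a chemokine, passed the filter only through the arrays on which it was high: it was under the floor at 0 and 1 µg/ml, at 671 at 10 µg/ml and at 561 at 100 µg/ml. Of the remaining 5, 1 was at least 2-fold higher at 10 µg/ml, Cxcl10, against 4.30% of all tested probe sets. At 100 over 10 µg/ml Lgals3bp, Eif2ak2 and Cxcl10, 3 of these 5, were at least 2-fold lower on both scales, against 16.0% of all on the deposited scale. Of 7 genes for peptide loading and the immunoproteasome, which supply class I histocompatibility molecules, Tap1, Psmb8 and Psmb9 were at least 2-fold higher at 10 µg/ml, against 4.30% of all tested probe sets. On the deposited scale all 7 were lower at 100 than at 10 µg/ml, as were 61.0% of all, none by 2-fold. Their median was -0.54 log2 on that scale and -0.36 relative to the median probe set. Of the other interferon regulatory factors, Irf3 and Irf8 were tested and neither differed 2-fold between doses within a cell type. Between cell types Irf8 did, at 128 in untreated neurons and 416 in untreated astrocytes.

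The genes whose profile over the 7 arrays was most like that of the group were found by the root mean square difference in log2 signal from the median profile of the 8, each profile centred on its own mean. The median used the brighter probe set of each of the 8, and each gene was then ranked by whichever of its tested probe sets lay nearest to it. Among 2944 genes, Irgm2 (0.19), Irf1 (0.20) and Mx1 (0.30) were nearest to it, and Irf7 (0.33) was 5th, which follows from their part in that median. The 8 nearest other genes were RT1-S3 (0.33), Arrdc4 (0.34), Bid (0.36), Ampd3 (0.39), Pde4b (0.40), Tap1 (0.40), Tbc1d2b (0.42) and Ralgds (0.42). RT1-S3, a class I histocompatibility gene, was at 76.0, 108, 254 and 61.9 in astrocytes at 0, 1, 10 and 100 µg/ml and at 54.5, 52.0 and 41.9 in neurons at 0, 1 and 10 µg/ml. It was thus highest at 10 µg/ml in astrocytes and lowest at that dose in neurons, where all its signals were under the overall median (79.9). RT1-S3 passed the filter only in astrocytes, with the help of the array at 10 µg/ml, so its likeness is partly fixed by the filter. Arrdc4, Pde4b and Tbc1d2b were also lower in neurons at 10 than at 0 µg/ml. Bid, Ampd3, Tap1 and Ralgds were higher in neurons at 10 than at 0 µg/ml. Oas1a was 28th, Gbp2 43rd and Mx2 75th. Rsad2 was far off, 2468th of 2944, at 1.36 in the nearer of its probe sets, which is the dimmer one.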

How the data were processed

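The authors isolated total RNA with a silica-membrane kit and labelled 100 ng by a two-cycle cRNA procedure for Affymetrix arrays, per the labels' protocols. The deposited values are signal intensities on a linear scale, computed per array with GCOS per the submitters' processing notes. The version of GCOS, with its target value, is not given in the sources used here. With 2% trimmed, the mean signal was 500.7 to 500.9 on every array, and the median signal 84.6 to 87.7 in neurons and 65.4 to 84.1 in astrocytes, lowest at 100 µg/ml.

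Of 8799 probe sets, 59 controls were left out. The platform annotation, updated by gene ID through RefSeq, gave 1 symbol to 7006 probe sets, several to 308 and none to 1426. Signals under the 25th percentile (17.9) were raised to it before log2 was taken, which makes any fold against them a minimum. Probe sets were tested, meaning counted at 2-fold or more, where their mean log2 signal was above the median: 4252 in astrocytes, 4453 in neurons and 4709 in either. A gene was represented by its brightest probe set, except in the ranks by likeness and by step down, which took the nearest and the most changed. No p-value was computed, since each combination of cell type and dose has 1 array. The counting was tested on simulated data. The genes and lists were chosen with earlier results of these data known. Genes outside the 8 were named by likeness of profile, by the size of the step down after 10 µg/ml, or as members of a list. Python 3.11.15, numpy 2.4.6, pandas 2.3.3 and matplotlib 3.10.9 were used. Alternatives were quantile normalization, centring on the median, leaving out the floor or the filter, filtering at the 75th percentile (436), and averaging all probe sets that share a gene.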

Additional observations from a re-analysis of the deposited data

Results flagged for a closer look

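In all 8 genes the astrocyte array at 10 µg/ml lay above its untreated array while the neuron array at the same dose lay below its own, so the changes had opposite signs. Of all probe sets tested in both cell types and at least 2-fold higher in astrocytes at 10 µg/ml, 64.9% were likewise lower in neurons at that dose. The difference between the changes, astrocytes minus neurons, was 5.55 log2 for Rsad2 (4.70 and -0.86), 3.88 for Gbp2 (3.06 and -0.82), 3.30 for Irgm2 (2.51 and -0.79) and 2.69 for Irf1 (2.39 and -0.29). It was 2.51 for Mx1 (2.38 and -0.13), 2.10 for Irf7 (1.20 and -0.90), 1.71 for Oas1a (0.97 and -0.75) and 1.69 for Mx2 (1.04 and -0.65). With 1 array for each value the difference was not tested. For Mx1 and Irf1 the neuron change was inside the range that 95% of all tested probe sets stayed within (0.58 log2).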

How the results depend on the processing

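Under quantile normalization, centring and no floor, 254 of 297 changes of the gene probe sets moved by less than the typical SD between neuron arrays (0.130 log2), 43 moved by more, and none of 2-fold or more changed sign. Without a floor, no count or median given in the text moved by over 1.5 times or by more than that SD. Quantile normalization moved the median of the 8 genes to 0.58 for astrocytes at 100 over 0 µg/ml and -1.10 at 100 over 10 µg/ml. Centring moved these medians to 0.70 and -1.13, and the genes at least 2-fold higher at 100 over 0 µg/ml to 4. The 75th percentile filter leaves fewer genes. It moved the medians to 0.90 (astrocytes, 100 over 0 µg/ml), -1.08 (100 over 10), -0.04 and -0.56 (neurons, 1 and 10 over 0) and -2.96 (neurons over astrocytes at 10 µg/ml). The genes at 2-fold became 3 for astrocytes at 100 over 10 µg/ml and 0 for neurons at 1 over 0 µg/ml, and those with a peak at 10 µg/ml became 3, of 17 such probe sets. Of the 8 genes most like the group, 5 remained. Counts over all probe sets depend on the filter. For astrocytes at 1, 10 and 100 over 0 and at 100 over 10 µg/ml they were 85, 277, 1088 and 899. Without a filter they were 466, 728, 1805 and 1463, with the 75th percentile 22, 115, 416 and 324, and with 1 mean per gene 30, 145, 602 and 479. For neurons at 1 and 10 over 0 µg/ml, 25 and 34 became 355 and 357 without a filter, 0 and 1 with the 75th percentile, and 9 and 14 with 1 mean per gene. Neurons over astrocytes at 0, 1 and 10 µg/ml, 1025, 1090 and 1248, became 487, 525 and 611 with the 75th percentile and 568, 587 and 710 with 1 mean per gene. Fewer items are tested in the stricter settings, and dim probe sets enter without a filter. Leaving out an array was not possible, since each combination has 1. No paired analysis was possible because the labels give no replicate numbers. Signals under the floor carry no order.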
